A study of Mus musculus with 6 samples.

Results

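Tshz3, Egr2, Tlx3, Lbx1, Lmx1b and Atoh1 encode transcription factors whose loss disturbs breathing in newborn mice, and they were read by name from the 49568 gene names measured in each sample. The choice of these 6 genes rested on what their mutants are known for and used no measured value. It was made with earlier results of these data known. RNA was sequenced from neurons of the preBötzinger complex (preBötC), the brainstem site that generates the inspiratory rhythm. All animals were Dbx1CreERT2; Rosa26tdTomato mice at postnatal day 2, so both groups carried the tamoxifen-inducible Cre at the Dbx1 locus and the tdTomato reporter, and both were exposed to tamoxifen through the pregnant dam. The 3 Dbx1 samples held tdTomato-positive neurons, whose progenitors had expressed Dbx1. The 3 non-Dbx1 samples held neuronal somata with no tdTomato fluorescence, a negative choice that does not exclude neurons of the Dbx1 lineage in which Cre had not acted. Each sample pooled 15 neurons drawn into micropipettes from a single mouse, with no mouse used for more than 1 sample. In pools of this kind, fewer cells of a type and less RNA per cell cannot be told apart.

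These regulators act at different steps of hindbrain development. Atoh1, a basic helix-loop-helix factor, sets up the most dorsal progenitors of the hindbrain, the source of pontine and cerebellar granule neurons, and is switched on in young retrotrapezoid neurons. Lbx1, a homeodomain factor, defines the neighbouring class B interneurons of the dorsal hindbrain and spinal cord. Tlx3, another homeodomain factor, acts within that class to favour the glutamatergic over the GABAergic fate and is also needed for noradrenergic neurons. Lmx1b, a LIM homeodomain factor, is required for serotonergic neurons and is shared with Tlx3 by dorsal excitatory neurons. Egr2 (Krox20), a zinc finger factor, patterns hindbrain segments in the embryo, directs myelination in Schwann cells and belongs to the immediate early genes that neurons switch on with activity. Tshz3 (teashirt 3), a zinc finger and homeodomain protein, is required in the newborn for breathing to begin.

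In the annotation of GRCm38, which is the mm10 build the reads were aligned to, all 6 were protein-coding genes whose exons shared no base with those of another gene. Tshz3 (ENSMUSG00000021217) lies on the plus strand at chr7:36698118-36773553 and Egr2 (ENSMUSG00000037868) on the plus strand at chr10:67535475-67542188. Tlx3 (ENSMUSG00000040610) lies on the minus strand at chr11:33200752-33203589 and Lbx1 (ENSMUSG00000025216) on the minus strand at chr19:45232684-45235812. Lmx1b (ENSMUSG00000038765) lies on the minus strand at chr2:33560965-33640511 and Atoh1 (ENSMUSG00000073043) on the plus strand at chr6:64729125-64731245. Values below are over the exons of each gene, as RPKM, the reads per kilobase of exon scaled to the total of reads on genes that the authors deposited.

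Between 6464675 and 9432958 reads per sample fell on genes, as worked out from the spacing of the RPKM values, and a level of 0 allows up to the RPKM that 3 reads would have given. Reads of amplified complementary DNA are not independent molecules, so such floors cover counting error only. The neuronal markers Tubb3, Snap25, Syn1, Eno2, Map2 and Rbfox3 summed to between 992.6 and 1708 RPKM in every sample. The Dbx1 gene itself was at 0 in all 6 samples, so it gave no check of the group labels. Of the 6 microglial markers, Tmem119 was at 0 in all samples, whereas C1qa (named after its values were seen) measured 7.46 RPKM in Dbx1 replicate 3, 10.2 and 11.8 RPKM in non-Dbx1 replicates 2 and 3, and 0 elsewhere. Among non-Dbx1 samples, replicate 1 stood apart by oligodendrocyte lineage markers (257.4 RPKM summed over 6 genes, against 14.7 to 70.1 elsewhere) and erythroid genes (14058 RPKM over 5 genes, against 90.3 to 1198). Replicate 2 stood apart by noradrenergic neuron genes (572.3 RPKM over 6 genes, against 0.459 to 15.7) and replicate 3 by motor neuron genes (157.2 RPKM over 7 genes, against 3.23 to 27.8). Medians of lists that lean on one of these samples are given without it too, a choice made after the data were seen.

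Taking 3 reads as the floor, Lbx1 and Tshz3 were above it in every sample, Egr2 in 5 samples, Tlx3 in 2, Lmx1b in 1 and Atoh1 in none. The highest Egr2 level was at least 72.7-fold higher than that in Dbx1 replicate 3, where Egr2 had 1 read. No regulator separated the Dbx1 from the non-Dbx1 neurons.

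**Figure D1:**
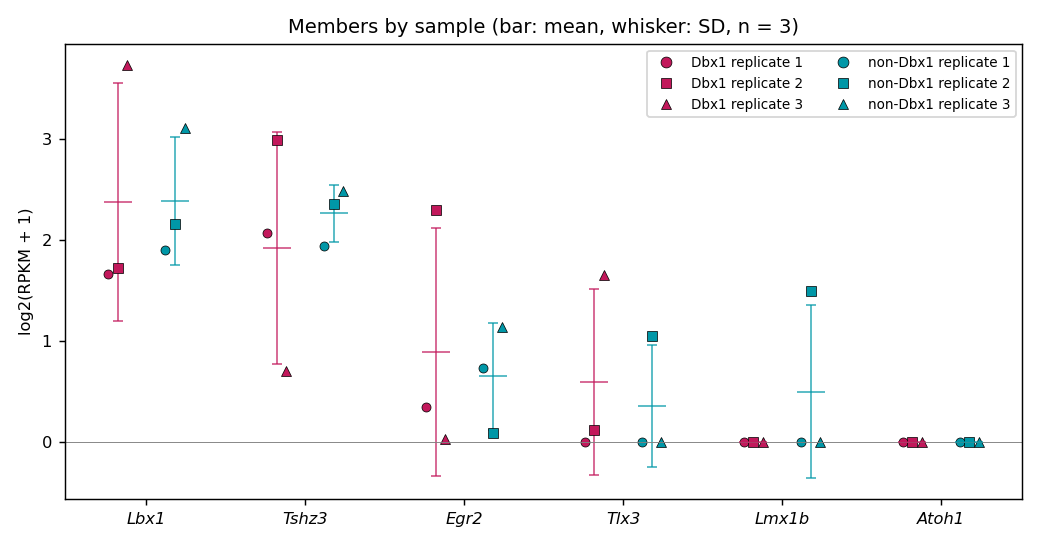
RPKM of the 6 regulators on the vertical axis as log2(RPKM + 1), with a point for each of the 3 Dbx1 and 3 non-Dbx1 samples, a bar at each group mean and a whisker of 1 SD. The groups overlapped for all of them, Lmx1b was above 0 in non-Dbx1 replicate 2 alone, and Atoh1 stayed at 0 in all 6 samples.

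Lbx1 had the highest mean of the 6 regulators. It measured 2.18, 2.30 and 12.4 RPKM in Dbx1 replicates 1, 2 and 3, from 43, 43 and 214 reads. In the non-Dbx1 replicates it measured 2.74, 3.48 and 7.64 RPKM, from 44, 74 and 179 reads. The third replicate of either group was the highest of its group, and all 3 non-Dbx1 values fell between the lowest and highest Dbx1 values. The group means were 5.62 ± 5.86 RPKM (SD, n = 3) in Dbx1 and 4.62 ± 2.64 (SD, n = 3) in non-Dbx1 neurons.

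Tshz3 was found at similar levels in the 3 non-Dbx1 samples and at widely different ones in the Dbx1 samples. It measured 3.21, 6.97 and 0.624 RPKM in Dbx1 replicates 1, 2 and 3, from 141, 290 and 24 reads, so that the highest and the lowest of all 6 values were both in this group. In the non-Dbx1 replicates it measured 2.85, 4.14 and 4.60 RPKM, from 102, 196 and 240 reads. The highest value was 11.2 times the lowest among Dbx1 samples and 1.61 times the lowest among non-Dbx1 samples; whether the spread itself differed was not tested. The group means were close, with 3.60 ± 3.19 RPKM (SD, n = 3) in Dbx1 and 3.87 ± 0.906 (SD, n = 3) in non-Dbx1 neurons.

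Egr2 came mostly from a single sample. It measured 0.268, 3.93 and 0.0180 RPKM in Dbx1 replicates 1, 2 and 3, from 17, 236 and 1 reads. In the non-Dbx1 replicates it measured 0.659, 0.0586 and 1.20 RPKM, from 34, 4 and 90 reads. Dbx1 replicate 2 held 64.1% of the summed RPKM, and the other two Dbx1 samples lay within the range of the non-Dbx1 group or below it. The mean was 1.41 ± 2.19 RPKM (SD, n = 3) in Dbx1 and 0.638 ± 0.569 (SD, n = 3) in non-Dbx1 neurons. The exon length behind these values, 7979 bases as recovered from the RPKM steps, exceeds both the 3398 bases of annotated exon and the 6714 bases that the whole gene spans, so Egr2 may be understated against other genes by a factor of 2.35. That factor is the same in every sample and leaves ratios of RPKM between the groups as they are. It does bear on log2(RPKM + 1), the scale on which limma compared the groups. No group fit was made at the annotated length.

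Tlx3 was above 0 in 3 of the 6 samples and above the 3-read floor in 2. It was at 0 in Dbx1 replicate 1, at 0.0866 RPKM (1 read) in Dbx1 replicate 2 and at 2.16 RPKM (23 reads) in Dbx1 replicate 3. Among non-Dbx1 samples it reached 1.07 RPKM (14 reads) in replicate 2 and was not seen in the other two. The samples at 0 allow up to 0.246 RPKM in Dbx1 replicate 1 and up to 0.303 and 0.208 RPKM in non-Dbx1 replicates 1 and 3, all below the 2 higher values. The group means were 0.748 ± 1.22 RPKM (SD, n = 3) in Dbx1 and 0.356 ± 0.616 (SD, n = 3) in non-Dbx1 neurons. Each group had a single sample in which Tlx3 stood above the level that 3 reads give.

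Lmx1b was at 0 in all 3 Dbx1 samples and in non-Dbx1 replicates 1 and 3, and measured 1.81 RPKM in non-Dbx1 replicate 2. At the annotated exon length that value corresponds to 76 reads, although it is not a whole number of reads there and the length used by the authors could not be recovered from 1 value. At the annotated length, floors in the other 5 samples lay between 0.0652 and 0.0951 RPKM. The level in that sample would then be at least 19-fold higher than in any of them. A shorter length would raise these floors and lower that bound. Without non-Dbx1 replicate 2, Lmx1b was at 0 throughout.

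Atoh1 was at 0 in all 6 samples, which allows levels up to between 0.150 and 0.219 RPKM depending on the sample. At this depth it was not detectable in either group.

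The question of the group comparison was how the rhythmogenic Dbx1 neurons differ from their neighbours, and for these regulators no difference was larger than the spread between replicates. L2FC denotes mean log2(RPKM + 1) in Dbx1 minus that in non-Dbx1 samples, and was tested with limma over the 17614 genes above 0 in at least 3 samples. Only 4 of the 6 regulators passed that filter, Tlx3 with exactly 3 samples above 0, while Lmx1b and Atoh1 did not. None of the 4 passed an FDR (the Benjamini-Hochberg adjusted p) of 0.1 and none had an unadjusted limma p under 0.05, against 0.00568% and 5.2% of all genes tested. None had groups that did not overlap, against 10.6% of all genes tested. With voom on the recovered reads, the 3 regulators with enough reads (Tshz3, Egr2 and Lbx1) had no FDR under 0.954.

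Tshz3 had an L2FC of -0.34 (moderated standard error, SE, 0.676, 95% interval -1.89 to 1.20, limma FDR = 0.973). Egr2 had an L2FC of 0.24 (SE 0.623, interval -1.18 to 1.67, limma FDR = 0.98). That of Tlx3 was 0.24 (SE 0.496, interval -0.89 to 1.38, limma FDR = 0.976) and that of Lbx1 was -0.015 (SE 0.693, interval -1.60 to 1.57, limma FDR = 0.999). All 4 intervals thus still hold changes of more than 1 on the log2 scale in Dbx1 neurons, upward for each gene and downward for all but Tlx3. Exact two-sided permutation tests over the samples gave p = 0.8 for Tshz3, 0.9 for Egr2, 0.7 for Tlx3 and 1 for Lbx1, where the smallest p that 3 samples against 3 allow is 0.1. Lmx1b, above 0 in 1 sample, could give no p other than 1 and was not tested.

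The direction of 3 of the 4 differences turned with the removal of 1 sample. Without Dbx1 replicate 3, the sample with least Tshz3, its L2FC was 0.27. Without Dbx1 replicate 2, the sample with most Egr2, its L2FC was -0.46, and without non-Dbx1 replicate 2 it was -0.043. That of Lbx1 ranged from -0.70 without Dbx1 replicate 3 to 0.34 without non-Dbx1 replicate 3. Tlx3 kept its sign in the 3 such fits it entered, at 0.069 to 0.54, and left the test in the other 3.

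**Figure D2:**
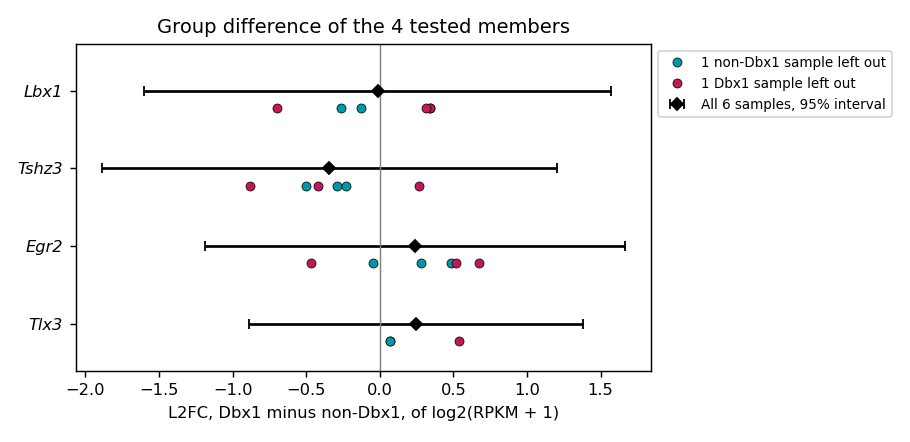
Difference between groups (L2FC, horizontal axis, positive where Dbx1 was higher) of the 4 regulators tested, with limma's 95% interval as a bar and the estimates without each single sample as points below it. Every interval spans 0, and for Lbx1, Tshz3 and Egr2 the points lie on both sides of 0.

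Differences between samples of a group were larger than differences between groups. The median absolute L2FC of the 4 regulators was 0.24, against 0.33 over all genes tested. The within-group SD of log2(RPKM + 1) was 0.84 for Tshz3, 0.95 for Egr2, 0.78 for Tlx3 and 0.95 for Lbx1. Its median over all genes tested was 0.55, also above their median absolute L2FC, so this was not particular to the regulators. Between 72.7% and 82.7% of all genes tested had a lower within-group SD than one of these. Among genes whose mean lay within 2-fold of the regulator's own, the share with a lower SD was 61.3% for Tshz3, 79.9% for Egr2, 81.8% for Tlx3 and 71.8% for Lbx1. These shares describe the 4 genes, and no test was made of them.

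Levels of different genes were set side by side in RPKM, which is per length of exon. By mean RPKM over the 6 samples the order was Lbx1 (5.12), Tshz3 (3.73), Egr2 (1.02), Tlx3 (0.552), Lmx1b (0.302) and Atoh1 (0). Of the 27067 genes above 0 in any sample, 74.2% had a lower mean than Lbx1 and 69.2% a lower mean than Tshz3. Egr2 lay close to the middle of that range, with 48.9% of genes lower, and Tlx3 and Lmx1b lay lower still, with 40% and 31.8%. The median of these means was 1.09 RPKM.

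Neighbours in that order were compared within samples, as 5 pairs, by exact two-sided sign-change tests. With all 6 samples differing the smallest p is 0.0312, or 0.156 when adjusted for a single such pair, so 1 pair alone could not pass the adjustment. Lbx1 and Tshz3 did not differ beyond their spread (mean difference 0.29 ± 1.48, SD, on the log2(RPKM + 1) scale, exact p = 0.781), and Lbx1 was the higher in only 2 of the 6 samples. Tshz3 was above Egr2 in 6 of 6 samples, by 1.32 ± 0.62 (SD) on average (exact p = 0.0312, adjusted over the pairs 0.156). At the annotated exon lengths Egr2 had a mean of 2.40 RPKM, and Tshz3 was then above it in 5 of 6 samples by 0.84 (exact p = 0.0625, adjusted 0.312). Egr2 and Tlx3 did not differ beyond their spread (0.30, exact p = 0.625). Tlx3 and Lmx1b (0.22) differed in 3 samples only, which allows no exact p under 0.25, and Lmx1b and Atoh1 (0.25) in 1, which allows no p but 1, so the order of these 3 genes could not be tested. Tlx3 was above Lmx1b in 2 samples and below it in 1.

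**Figure D3:**
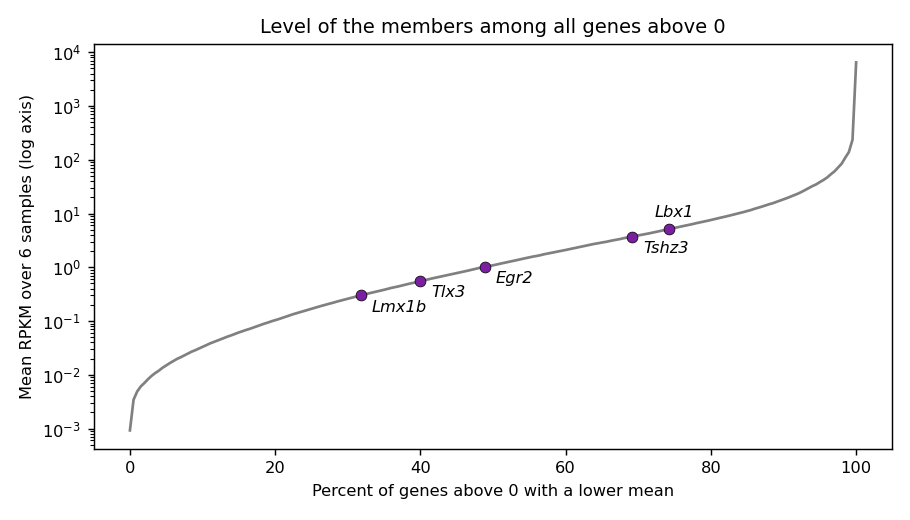
Mean RPKM over the 6 samples (log axis) against the percent of genes above 0 with a lower mean, with the 5 regulators above 0 marked on the curve of all genes. Lbx1 and Tshz3 lie at 74.2% and 69.2%, and Lmx1b at 31.8%.

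The genes whose sample pattern was most like that of a regulator were found by the root mean square difference of centred log2(RPKM + 1) over the 6 samples, among 13163 genes tested with a mean of at least 1 RPKM. For Tshz3, whose own values deviated by 0.71 from their mean, they were Tctex1d2 (0.18), Mterf4 (0.19) and Gm12751 (0.19). For Egr2 (0.78) they were Ppm1k (0.089), Gemin2 (0.18) and a gene known only by its clone (0.19). For Tlx3 (0.65) they were Gclm (0.14), Sv2c (0.20) and Tacc1 (0.21), and for Lbx1 (0.78) they were Gm12928 (0.15), Zfp654 (0.18) and Ptprg (0.18). Of the regulators, Tshz3, Egr2 and Lbx1 were among the candidates, and none of them was a nearest gene of another. Likeness over 6 libraries describes these libraries, which each likeness shares.

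Lbx1 and Tlx3 are known from the class B programme of the dorsal hindbrain. Of its 14 genes, 13 were above 0 in some sample, 7 were tested and none passed an FDR of 0.1 with limma. At an unadjusted limma p under 0.05, 1 of the 7 was higher in Dbx1 and 1 in non-Dbx1 neurons, and the median L2FC was 0.24 against 0.0089 over all genes tested. Lhx5, a LIM homeodomain factor of GABAergic and other interneurons, measured 18.2, 9.98 and 16.4 RPKM in Dbx1 and 6.04, 5.61 and 5.24 RPKM in non-Dbx1 replicates 1 to 3. Its groups did not overlap, and its L2FC was 1.22 (SE 0.361, limma FDR = 0.804). Gbx1, a homeodomain factor of dorsal interneurons, was at 0.0362, 0 and 0 RPKM in Dbx1 and at 0, 3.57 and 4.03 RPKM in non-Dbx1 replicates 1 to 3 (L2FC -1.49, limma FDR = 0.912), so it was low in non-Dbx1 replicate 1 too.

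Lhx1, the relative of Lhx5, ran from 1.42 RPKM in non-Dbx1 replicate 2 to 34.4 RPKM in non-Dbx1 replicate 3 (L2FC 0.070, limma FDR = 0.996). Pax2, picked out after its values were seen, was the other gene of the list whose groups did not overlap. It measured 2.75, 3.95 and 5.16 RPKM in Dbx1 and 1.12, 0.547 and 1.93 RPKM in non-Dbx1 neurons (L2FC 1.19, limma FDR = 0.912). Pax2 marks inhibitory interneurons of this class, and the paper also describes it in ventral interneurons of the Dbx1 lineage. Ptf1a, the progenitor factor of the inhibitory branch, was at 0 in all samples. Tlx1 and Prrxl1, which accompany Tlx3 in dorsal excitatory neurons and were also picked out after their values were seen, did not exceed 0.370 and 0.236 RPKM. In Dbx1 replicate 3, where Tlx3 and Lbx1 were both at their highest, Prrxl1 had 5 reads and Tlx1 was at 0. Prrxl1 had 4 reads in Dbx1 replicate 2, too few to rank these samples, and was at 0 elsewhere. Tlx1 was above 0 in Dbx1 replicate 2 alone, from 6 reads.

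Atoh1 belongs to the class A programme, of which 3 of 10 genes (Atoh1, Olig3 and Neurog2) were at 0 in all samples. Only 2 of the 10 were tested, with none at an FDR under 0.1 or an unadjusted limma p under 0.05 and a median L2FC of 0.042. Pou4f1, a POU factor of dorsal and sensory neurons, measured 0.0480, 1.04 and 2.93 RPKM in Dbx1 and 0, 0.602 and 0.202 RPKM in non-Dbx1 replicates 1 to 3. Foxd3 was above 0 in 2 samples (2.27 RPKM in Dbx1 replicate 1 and 0.456 RPKM in non-Dbx1 replicate 3). Lhx9 and Lhx2, LIM homeodomain factors that mark the descendants of Atoh1 progenitors, were each highest in the same pair of samples, with Lhx9 at 1.01 and 0.842 RPKM and Lhx2 at 0.677 and 0.742 RPKM in non-Dbx1 replicates 1 and 2. In the other samples neither exceeded 0.0108 RPKM. Barhl1 and Barhl2 of the same list, named after their values were seen, did not share this pattern. Barhl1 measured 0.0139 RPKM in Dbx1 replicate 1 and 0.0258 RPKM in non-Dbx1 replicate 2, and Barhl2 was above 0 in Dbx1 replicate 3 alone (0.248 RPKM). Which cells gave these values was not tested.

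Retrotrapezoid neurons, which sense carbon dioxide, derive from Egr2 and Lbx1 lineages and express Atoh1 as they form, were read from Nmb, Gal, Gpr4, Kcnk5 and Adcyap1. Kcnk5, the acid-sensitive potassium channel, was at 0 in all samples, and Gpr4, the proton receptor, measured 3.16 RPKM in non-Dbx1 replicate 2 and at most 0.0499 RPKM elsewhere. Of the 3 genes tested none passed an FDR of 0.1, and 1 had an unadjusted limma p under 0.05. This was Adcyap1, which encodes the neuropeptide PACAP, with 2.23, 0.0636 and 6.20 RPKM in Dbx1 and 24.5, 143.5 and 37.0 RPKM in non-Dbx1 replicates 1 to 3 (L2FC -4.16, limma FDR = 0.697), and its groups did not overlap. The median L2FC of the list was 0.26, or -0.37 without non-Dbx1 replicate 2. Gal (0.821 to 21.3 RPKM) and Nmb (0.376 to 3.07 RPKM) overlapped between the groups.

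**Figure D4:**
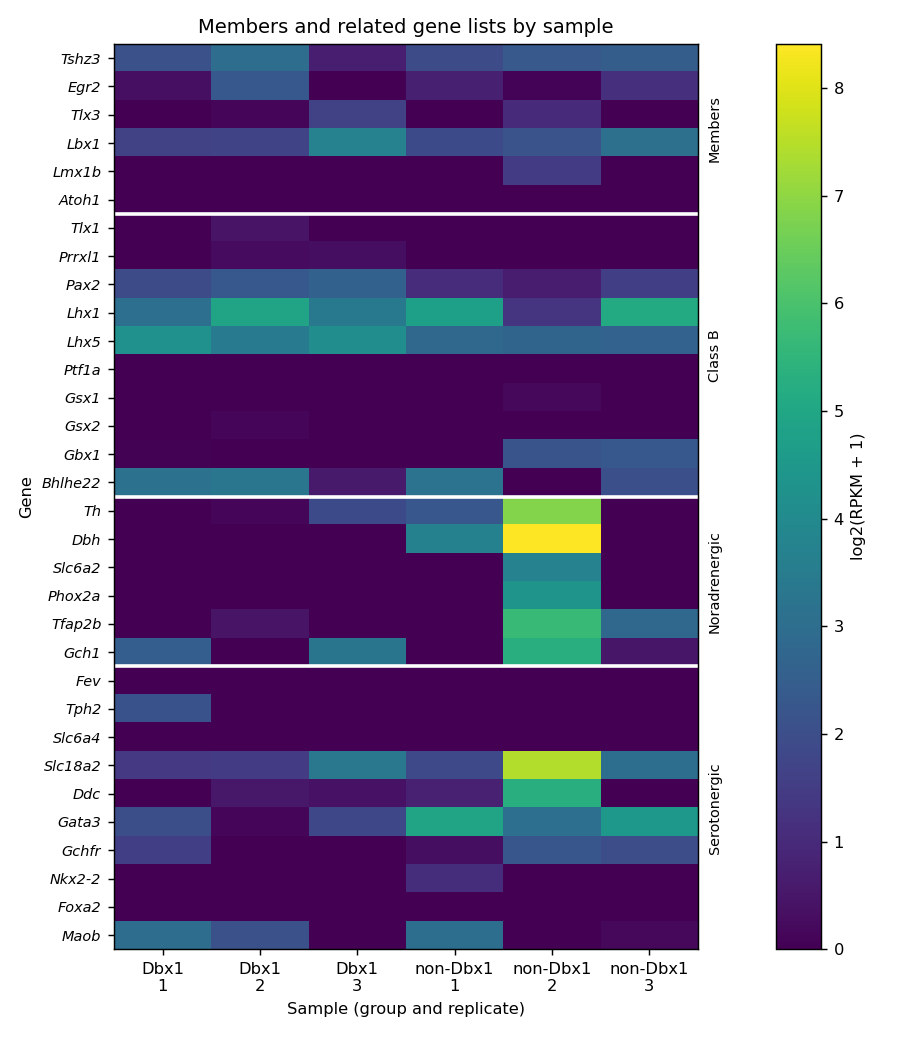
log2(RPKM + 1) as colour for the 6 regulators and other genes of the class B, noradrenergic and serotonergic lists (rows) in the 6 samples (columns). Lmx1b is above 0 in the column of non-Dbx1 replicate 2, where Dbh and Th reached 338.7 and 113.6 RPKM.

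The sample with Lmx1b was also the sample with noradrenergic genes. In non-Dbx1 replicate 2, Dbh, which makes noradrenaline from dopamine, measured 338.7 RPKM and Th, the rate-limiting enzyme of the pathway, 113.6 RPKM. Elsewhere Dbh reached 11.8 RPKM and Th 3.86 RPKM, both in non-Dbx1 replicate 1, and Dbh was at 0 in the other 4 samples. Tfap2b (50.0 RPKM) and Gch1 (38.5 RPKM) were highest there too, and Slc6a2 (12.3 RPKM), the noradrenaline transporter, and Phox2a (19.2 RPKM), named after their values were seen, were above 0 in that sample only. Tlx3, which noradrenergic neurons need, was at 1.07 RPKM in that sample but higher, at 2.16 RPKM, in Dbx1 replicate 3, where the noradrenergic list summed to 11.3 RPKM and Dbh was at 0. Of the 3 noradrenergic genes tested, none passed an FDR of 0.1 or had an unadjusted limma p under 0.05 (median L2FC -2.36, or -0.46 without non-Dbx1 replicate 2). The part of noradrenergic RNA in the Lmx1b and Tlx3 values of this sample was not tested.

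Lmx1b is known for the serotonergic programme, whose 10 genes summed to 220.0 RPKM in the sample with Lmx1b and to 5.58 to 40.9 RPKM elsewhere. Fev and Slc6a4, which define serotonergic neurons, and Foxa2 were at 0 in all 6 samples, and Tph2, the enzyme of serotonin synthesis named after its values were seen, was above 0 only in Dbx1 replicate 1 (3.36 RPKM), where Lmx1b was at 0. Slc18a2, the vesicular transporter of all monoamines, measured 171.1 RPKM in non-Dbx1 replicate 2 and 1.65 to 9.41 RPKM elsewhere. Ddc, a decarboxylase of both serotonin and noradrenaline synthesis, measured 37.6 RPKM there against at most 0.690, and Gchfr, named after its values were seen, 3.81 RPKM against at most 2.96. Slc18a2 and Ddc belong to noradrenergic neurons as well, and the part of either cell type in the Lmx1b value was not tested. Maob reached 7.08 and 7.14 RPKM in Dbx1 replicate 1 and non-Dbx1 replicate 1 and was at 0 in non-Dbx1 replicate 2.

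Of the 10 serotonergic genes 5 were tested, none passed an FDR of 0.1 and 1 had an unadjusted limma p under 0.05 (median L2FC of the list -1.70, or -0.36 without non-Dbx1 replicate 2). This was Gata3, a zinc finger factor that serotonergic neurons share with ventral inhibitory interneurons, with 3.03, 0.0968 and 2.54 RPKM in Dbx1 and 29.0, 7.41 and 21.6 RPKM in non-Dbx1 replicates 1 to 3. Its groups did not overlap (L2FC -2.84, SE 0.682, limma FDR = 0.724), and its lowest non-Dbx1 value was in the sample with Lmx1b.

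LIM homeodomain proteins such as Lmx1b and Lhx5 work through the bridging factor Ldb1 and its partners, and compete for it with LIM-only proteins. Of the 9 genes of the list 8 were above 0 in every sample, whether or not Lmx1b was. The same number were tested, none passed an FDR of 0.1, and 1 had an unadjusted limma p under 0.05 (median L2FC 0.68). Ssbp2, which stabilises the Ldb complex, measured 8.78, 14.1 and 9.60 RPKM in Dbx1 and 3.27, 6.38 and 4.68 RPKM in non-Dbx1 replicates 1 to 3 (L2FC 1.04, SE 0.406, limma FDR = 0.912). Ldb2, named after its values were seen, was the other gene with groups that did not overlap, with 6.40, 2.00 and 2.19 RPKM in Dbx1 and 1.49, 0.427 and 0.503 RPKM in non-Dbx1 neurons.

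The abundant Lmo4 (10.5 to 28.2 RPKM), Lmo1 (2.60 to 42.8 RPKM) and Ssbp3 (3.81 to 9.25 RPKM) overlapped between the groups. Lmx1a, the closest relative of Lmx1b, named after its values were seen, was above 0 only in non-Dbx1 replicate 1, at 0.0443 RPKM.

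All 9 genes of the teashirt family and its partners were above 0 in every sample, as Tshz3 was. All 9 were tested, none passed an FDR of 0.1 or had an unadjusted limma p under 0.05, and the median L2FC was -0.44. Tshz1, its paralog, measured 8.86, 3.86 and 1.48 RPKM in Dbx1 and 10.2, 7.38 and 2.51 RPKM in non-Dbx1 replicates 1 to 3, so that it was lowest in replicate 3 of either group. In Dbx1 replicate 3 both Tshz1 and Tshz3 were at their lowest of the 6 samples, whereas Tshz2, named after its values were seen, was there at 3.46 RPKM, the highest of the Dbx1 group. Ctbp1 and Hdac2, corepressors of the kind that teashirt proteins bind, were abundant at 24.1 to 45.6 and 23.4 to 60.2 RPKM. Zfhx3, another large zinc finger and homeodomain protein, ran from 0.848 to 12.2 RPKM.

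Egr2 was set beside its family and beside immediate early genes. Of the 7 genes of the Egr family and its partners 5 were tested, none passed an FDR of 0.1 or had an unadjusted limma p under 0.05, and the median L2FC was -0.25. Egr1 measured 0, 10.1 and 1.40 RPKM in Dbx1 and 4.01, 17.3 and 3.91 RPKM in non-Dbx1 replicates 1 to 3, and Egr3 was at 0 in all 6 samples. Egr1 was therefore highest in non-Dbx1 replicate 2, where Egr2 had 4 reads. Nab1, a corepressor of Egr proteins, was the gene of the list with groups that did not overlap, at 2.11 ± 1.12 RPKM (SD, n = 3) in Dbx1 and higher in all 3 non-Dbx1 samples (L2FC -1.11, limma FDR = 0.917). Srf (1.31 to 8.50 RPKM) and Elk1 (0.0511 to 6.26 RPKM), the factors that act on serum response elements, overlapped between groups, and Elk1, like Egr2, was highest in Dbx1 replicate 2 and lowest in Dbx1 replicate 3.

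Among 7 immediate early genes 6 were tested, with none at an FDR under 0.1 or an unadjusted limma p under 0.05 and a median L2FC of 0.092. Junb was highest where Egr2 was, at 9.24 RPKM in Dbx1 replicate 2 against 0.0672 to 2.95 RPKM elsewhere. Fos was highest in non-Dbx1 replicate 3 (8.45 RPKM) and at 0 in Dbx1 replicate 1. Nr4a1 was highest in non-Dbx1 replicate 1 (16.8 RPKM) and Ier2 in Dbx1 replicate 3 (20.3 RPKM), the sample in which Egr2 had 1 read. No single sample therefore held the highest level of all of these genes.

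The promoter of Egr2 is shown because it carries the element through which immediate early genes respond to serum response factor, the CArG box. The 250 bases that precede 1 of its annotated start sites, from RefSeq on GRCm38.p6, lie on the plus strand at chr10:67537619-67537868 and overlap no annotated exon. Capitals mark the CArG box, at chr10:67537797-67537806, which ends 63 bases before the start site.

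Egr2 promoter: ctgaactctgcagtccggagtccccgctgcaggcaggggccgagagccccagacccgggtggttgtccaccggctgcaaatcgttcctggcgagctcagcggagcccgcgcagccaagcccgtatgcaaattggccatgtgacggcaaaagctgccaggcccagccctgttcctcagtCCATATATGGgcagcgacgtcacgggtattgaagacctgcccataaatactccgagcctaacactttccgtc

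The CArG box, searched on both strands, was found in 535 of 32851 RefSeq promoter windows of 300 bases (1.63%). Among the regulators, 5 were in that table and 1, Egr2, held the motif, in 4 of its 5 windows, some of which overlap. The windows of Tshz3, Lmx1b, Atoh1 and Tlx3 held none, which says only that these letters are not there. Those windows were rich in CpG, with 33 CpG dinucleotides for Tshz3, 24 for Lmx1b, 20 for Atoh1 and 18 for Tlx3, and 16 to 32 for Egr2, against a median of 7 over all windows. The letters are the same in all cells and were not set against the levels by any test.

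Egr2 is also the regulator of Schwann cell myelination, and markers of myelinating cells were read for that reason. The 5 Schwann cell markers summed to 5.93 RPKM in Dbx1 replicate 2, the sample with most Egr2, and Prx did not exceed 0.0866 RPKM in any sample. They were highest in non-Dbx1 replicate 1 (51.3 RPKM summed, of which Sox10 gave 46.0), the sample with high oligodendrocyte lineage markers, where Egr2 measured 0.659 RPKM. The part of such RNA in the Egr2 values was not tested. Without non-Dbx1 replicate 1, the L2FC of Egr2 was 0.28.

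Relatives and partners of Tlx3, Lbx1 and Atoh1 included 10 genes, of which 6 were tested, none at an FDR under 0.1 or an unadjusted limma p under 0.05 (median L2FC -0.10). Tlx2 and Lbx2, the paralogs, were at 0 in all samples. Skor1, a corepressor that binds Lbx1, was at 5.18 RPKM in non-Dbx1 replicate 3 and at 1.65 RPKM in Dbx1 replicate 3, the pair of samples with the highest Lbx1, and did not exceed 0.0225 RPKM elsewhere. Tcf3 and Tcf4, partners of basic helix-loop-helix factors such as Atoh1, ran from 0 to 6.43 and from 0.421 to 1.62 RPKM. Atoh7, a relative of Atoh1, was above 0 in every sample at 1.68 to 8.30 RPKM.

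Other regulators with a breathing phenotype included Dbx1, Pbx3, Ndn and Kdm6b. Of the 3 tested none passed an FDR of 0.1 and 1 had an unadjusted limma p under 0.05 (median L2FC 0.40). This was Pbx3, a TALE homeodomain factor whose loss causes central hypoventilation. It measured 48.0, 44.1 and 31.1 RPKM in Dbx1 and 18.8, 13.4 and 24.0 RPKM in non-Dbx1 replicates 1 to 3 (L2FC 1.10, SE 0.303, limma FDR = 0.787). Its groups did not overlap. The authors, who tested counts with DESeq2, reported Pbx3 as higher in Dbx1 neurons at an FDR under 0.1. Ndn, of the Prader-Willi region, was the most abundant at 323.1 to 572.0 RPKM. Kdm6b, a histone demethylase, ran from 1.12 to 5.56 RPKM.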

How the data were processed

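RNA was measured in 3 Dbx1 and 3 non-Dbx1 samples, grouped by the cell type in the labels. The authors made complementary DNA with SMART-Seq v4, aligned reads to mm10 with TopHat2, counted them on genes without regard to strand with HTSeq and deposited RPKM values, computed with total exon length and not scaled between samples. Versions are not given in the sources used here. Reads per sample and, where steps allowed, per gene were recovered from the steps between RPKM values (tolerance 0.001 of a read), as the smallest whole numbers that fit.

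The authors tested counts with DESeq2. Here log2(RPKM + 1) was tested with limma 3.58.1 (trend, two-sided, Benjamini-Hochberg, FDR threshold 0.1) in R 4.3.3 over the genes above 0 in at least 3 samples, after the fit was checked on simulated data. Exact permutation and sign-change tests, motif searches and plots used Python 3.11.15, numpy 2.4.6, pandas 2.3.3, scipy 1.17.1 and matplotlib 3.10.9. Positions came from GENCODE vM21, which matched 47214 of 49568 gene names (95.3%), and promoters from RefSeq.

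The regulators and the 19 gene lists beside them were chosen with earlier results of these data known. Named from each list were up to 4 genes (first those with limma p under 0.05, then the highest means) and defining markers at 0. The lists held dorsal hindbrain factors of classes A and B, teashirt, Egr, LIM and Tlx, Lbx and Atoh relatives, immediate early genes, other breathing regulators and genes of serotonergic, noradrenergic, retrotrapezoid and motor neurons and of neurons, astrocytes, oligodendrocytes, Schwann cells, microglia, vessels and blood. Alternatives were another pseudocount, other filters, size factors, quantile normalization, no trend, a replicate block, single samples left out, voom on recovered reads, a ratio of means and other exon lengths. Some genes of these lists are not reported here.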

Additional observations from a re-analysis of the deposited data

How the results depend on the processing

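Over all genes, 1 passed an FDR of 0.1. None passed with a pseudocount of 0.1 (974 genes at an unadjusted limma p under 0.05), with all genes above 0 in at least 1 sample (777), with the replicate block (819) or with voom on recovered reads (737), and 3 passed without the mean-variance trend. Leaving out single samples gave 0 to 1, the 0 without non-Dbx1 replicate 3. Replicate numbers did not pair samples, which came from different mice (correlations of same-numbered deviations -0.11, 0.025 and -0.052, with no sample pair best matched by its number both ways). No alternative brought a regulator to an FDR under 0.1 (lowest 0.883). Of 54 L2FC values under alternatives 45 kept their direction and 9 turned. The L2FC of Lbx1 turned to 0.0069 under quantile normalization and to 0.28 as a log2 ratio of means, and ran from -0.70 to 0.34 without single samples, where it was above 0 without Dbx1 replicate 1 (0.34), Dbx1 replicate 2 (0.31) and non-Dbx1 replicate 3 (0.34). As log2 ratios of means Egr2 and Tlx3 gave 1.14 and 1.07, and with a pseudocount of 0.1 they gave 0.055 and 0.62, against 0.24 for each. Tshz3 (-0.34) gave -0.10 as a ratio of means, -0.60 with a pseudocount of 0.1 and -0.64 with voom. That of Egr2 turned to -0.23 with voom and ran from -0.46 to 0.67 without single samples, and that of Tshz3 from -0.88 to 0.27. In the order of levels, Tlx3 minus Lmx1b turned to -0.15 in non-Dbx1 samples alone. Without single samples, Lbx1 minus Tshz3 ran from -0.26 to 0.60, Egr2 minus Tlx3 from -0.078 to 0.68, Tlx3 minus Lmx1b from -0.065 to 0.36 and Tshz3 minus Egr2 from 1.13 to 1.45. The causes were not tested. The annotated exon length was added after seeing the data. The median L2FC of the motor neuron list moved to -2.12 with a pseudocount of 0.1. Tlx3 left the test under stricter filters, without 3 of the samples and in voom. Depth limits what a 0 shows for Tlx3, Lmx1b and Atoh1.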

Other observations

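The pools also differed by genes of other cell types, given here as values. Some motor neuron genes were high in non-Dbx1 replicate 3, with Prph, a peripherin of axons, at 94.96 RPKM, Slc18a3, the vesicular acetylcholine transporter, at 37.0 RPKM and Isl1, a motor neuron determinant, at 13.3 RPKM there and at 0 in the other 5 samples. Mnx1 and Isl2, factors that define motor neurons, were at 0 in that sample and did not exceed 0.145 and 0.110 RPKM in any, and were named after their values were seen. Slc5a7, the choline transporter, ran from 0.146 to 10.9 RPKM and was highest in non-Dbx1 replicate 2. None of the 4 motor neuron genes tested passed an FDR of 0.1 or had an unadjusted limma p under 0.05 (median L2FC -1.18, or -0.79 without non-Dbx1 replicate 3). In that replicate Lbx1 and Tshz3 were the highest of the non-Dbx1 group, at 7.64 and 4.60 RPKM.

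Erythroid genes were higher in every non-Dbx1 than in every Dbx1 sample for 4 of 5 genes, with Hbb-bs at 46.1, 119.9 and 235.0 RPKM in Dbx1 and 7238, 507.5 and 359.2 RPKM in non-Dbx1 replicates 1 to 3. None of the 5 passed an FDR of 0.1, and 4 had an unadjusted limma p under 0.05 (median L2FC -2.75, or -2.17 without non-Dbx1 replicate 1). Over all genes tested, groups did not overlap for 10.6%, and 5.2% had such a p. The same 4 genes made up both counts. All are globin genes, so they are not separate results. Among vascular markers Cldn5, a tight junction protein of endothelium, measured 63.7 RPKM in non-Dbx1 replicate 2 and at most 1.64 RPKM elsewhere, while Pecam1 did not exceed 0.507 RPKM in any sample. None of the 4 vascular, 4 microglial, 4 astrocyte or 6 neuronal markers tested passed an FDR of 0.1 or had an unadjusted limma p under 0.05 (median L2FC -0.59, 0.040, -0.18 and 0.10). Groups did not overlap for 2 of the 4 astrocyte markers, Gfap (higher in Dbx1) and Slc1a3 (higher in non-Dbx1 neurons), and for 1 of the 6 neuronal markers. The astrocyte list summed to 13.9 to 31.0 RPKM and the microglial list to 0.202 to 13.3 RPKM.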
